A study of Ovis aries with 12 samples.

Results

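Muscle gene expression was compared between callipyge and normal lambs at 10 days of age, the youngest of the 3 ages that were sampled. The comparison held 4 of the 12 lambs of the series, chosen by their labels: 2 callipyge lambs of the genotype +/CLPG and 2 normal wild-type lambs (+/+). The other 8 lambs, 2 of each genotype at 20 and at 30 days, served to estimate the spread between lambs and to set the values at 10 days beside those at later ages. Total RNA of the longissimus dorsi, the loin muscle beside the spine, was labelled with biotin, and each lamb gave 1 Affymetrix array made for cattle genes. All lambs had nursed until shortly before they were killed, and the muscle was kept in RNAlater. The replicates are labelled as biological, so each is a separate lamb. Breed, sex, litter and the parent that passed on the CLPG allele are not given in the sources used here.

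Callipyge is an inherited overgrowth of the loin and hindquarter muscles of sheep that first shows in young lambs, weeks after birth. The mutation lies between DLK1 and MEG3 in an imprinted gene cluster, in which DLK1 and RTL1 are read from the copy inherited from the father and MEG3 and its neighbouring non-coding RNAs from the copy inherited from the mother. DLK1 is a membrane protein of the Notch ligand family, and its excess in skeletal muscle accompanies the overgrowth. Affected muscles are known for larger fast fibres with a glycolytic metabolism.

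Levels are log2 of the scaled signal plus 16, so a signal of 0 stands at 4, and a difference of 1 is a doubling of the signal plus 16, on which every fold below is given. Differences are callipyge minus normal, with the standard error (SE) of a model fitted to all 12 arrays. The trimmed mean signal of the 10 day arrays was 74.6 and 55.7 in callipyge lambs and 75.2 and 78.5 in normal lambs, and 55.7 was the lowest of the 12. The lambs of a pair correlated at r = 0.966 (callipyge) and r = 0.965 (normal) across probe sets, which are not independent. Both 10 day normal arrays lay outermost among the 12 on the first principal component at its negative end, with scores of -22.0 and -17.0, against -12.4 and -13.1 in the 10 day callipyge lambs. The skeletal muscle markers measured, CKM, TNNI2, TNNT3, MYH1, ACTA1, MYH7, MB and DES, stood between 11.52 and 13.66 on the 4 arrays, while MYH2 has no named probe set here. Only 2 lambs stand in each group, so an exact permutation test over these 4 lambs cannot go below p = 0.333, and the tests below borrow their spread from all 12 arrays and all probe sets.

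Genotype differences at 10 days were few past the threshold, and they ran both ways. The genes that rose in callipyge muscle were DLK1 itself, SLC16A3, the monocarboxylate transporter that carries lactate out of glycolytic cells, and DNTTIP1, which belongs to a histone deacetylase complex. The genes that fell were UQCRQ, a subunit of respiratory complex III, and TTYH1, a membrane protein of the tweety family of anion channels. With limma, 8 of 12008 probe sets passed an adjusted p of 0.05 (0.0666%), of which 5 rose (0.0416%) and 3 fell (0.0250%). Of these, 3 carry no gene symbol and stood at 1.24, 1.20 and -1.21. At an adjusted p of 0.10 there were 27 (0.225%), among them METTL21E, PARK7 and RPL39, whose values stand with their lists. Others of the 27, named here after their values were seen, were UBE2J1 at 1.40, S100A14 at 1.00 and PAK1 at -1.31. The other PAK1 probe sets, at -1.07 and -1.18, were not among the 27 (adjusted p = 0.226 and 0.391). At an unadjusted p of 0.05 there were 1059 (8.82%). The split of 5 higher and 3 lower depended on the scaling, with 1 higher and 2 lower after median centring, 2 and 2 after quantile normalization, and 0 and 5 with no scaling. Leaving out any 1 of the 4 lambs of 10 days left 0 calls, with 855 to 888 probe sets at an unadjusted p of 0.05, and ordinary least squares also gave 0 calls, with 986.

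**Figure D1:**
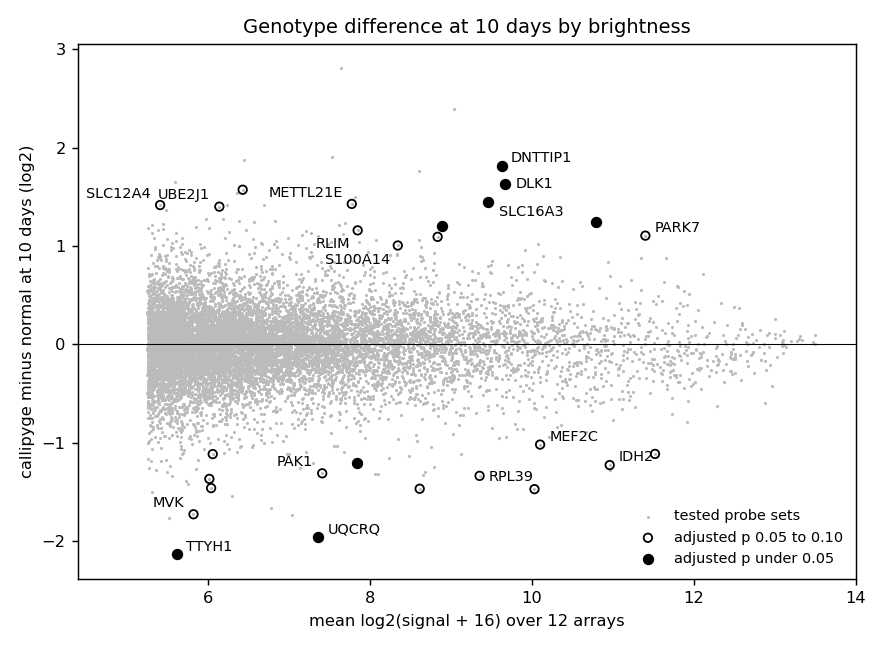
The plot shows, for each of the 12008 tested probe sets, the genotype difference at 10 days (vertical axis, log2, callipyge minus normal) against its mean level over the 12 arrays (horizontal axis, log2 of signal plus 16). Filled points are the 8 probe sets with an adjusted p under 0.05 and open circles those between 0.05 and 0.10, with gene symbols where the annotation gives 1; the grey cloud centres on a median of -0.01.

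DLK1 was higher in both callipyge lambs, with levels of 10.45 and 10.46 against 9.05 and 8.62 in the normal lambs. The groups did not overlap, and the callipyge pair differed by less than the normal pair. The difference was 1.63 ± 0.26 (SE), or 3.09-fold, with an adjusted p of 0.0485 in limma. The dimmer of the DLK1 probe sets read 7.40 and 7.49 in callipyge and 6.96 and 6.77 in normal lambs, and its difference of 0.58 ± 0.23 did not pass (adjusted p = 0.499). On the probe set that passed, the difference was 2.60 at 20 days and 2.92 at 30 days, in other lambs. The callipyge levels at those ages were 10.95, 11.17, 11.14 and 10.98, and the normal levels were 8.48, 8.45, 8.61 and 7.67. So at 10 days the callipyge levels were the lowest of the 6 callipyge lambs, and 1 normal lamb of 10 days had the highest level of the 6 normal lambs. The 10 day difference lay 1.13 below the mean of the later ones, which did not pass (adjusted p = 0.861). The call was close to the threshold: DLK1 passed in 10 of 25 alternatives, and in 2 of the 12 that left out 1 array, while its difference lay between 1.38 and 1.84 in all 25. Without the normal lamb labelled replicate 2 at 10 days the difference was 1.41 (adjusted p = 0.251). Median centring gave 1.55 (adjusted p = 0.0824) and quantile normalization 1.58 (adjusted p = 0.0515).

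MEG3, the maternally read non-coding RNA next to DLK1, had 5 tested probe sets, and none passed. The brightest read 10.36 and 8.90 in callipyge and 8.86 and 6.88 in normal lambs. The groups did not overlap, but the lambs of each pair lay further apart than those of DLK1 did, and the difference of 1.76 ± 0.55 had an adjusted p of 0.337. The other differences were 1.12, 1.10, 0.44 and 0.06, of which the last was -0.11 with no scaling. Of the flanking genes, WARS1, a tryptophan tRNA synthetase, had probe sets at 0.12, 0.02, -0.32 and -0.53, and YY1, a transcription factor, at 0.38, 0.15 and -0.21. SLC25A29, a mitochondrial carrier, stood at 0.16, and none of these passed; with no scaling SLC25A29, the WARS1 values of 0.12 and 0.02 and the YY1 value of 0.15 fell below 0. MEG8 and WDR25 were too dim to be tested, with levels of 4.03 to 4.74 and 4.15 to 4.70 on the 4 arrays. RTL1, MEG9, MIRG, DIO3 and BEGAIN have no named probe set here.

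Published work on callipyge muscle gave a list of 8 further genes, of which 5 were tested here. The list was drawn from studies of such lambs, so its direction is not independent evidence. All 5 were higher in both callipyge lambs than in both normal lambs, where 18.4% of all tested probe sets did not overlap in that direction, and the median difference was 1.11 against -0.01 over all tested probe sets. DNTTIP1 passed, with levels of 9.96 and 10.08 in callipyge and 8.09 and 8.32 in normal lambs. It rose by 1.81 ± 0.26, or 3.51-fold (adjusted p = 0.0261), and its differences at 20 and 30 days were 1.84 and 1.55, so it stood about as far apart at each age. PARK7, a sensor of oxidative stress, read 12.06 and 12.11 against 11.05 and 10.92, a difference of 1.11 ± 0.21 with an adjusted p of 0.0754. METTL21E, a protein lysine methyltransferase of muscle, stood at 1.50 on its brightest probe set (adjusted p = 0.143) and at 1.43 on the other (adjusted p = 0.0679), where it read 8.67 and 8.97 against 7.15 and 7.64. RPS6KA3, a kinase downstream of ERK, differed by 0.71 and APOD, a lipid-binding secreted protein, by 0.82, and neither passed (adjusted p = 0.225 and 0.237). At 30 days the METTL21E probe set of 1.50 stood at 2.77, the other at 2.19 and PARK7 at 1.59. Each of these passed at that age (adjusted p = 0.00648, 0.00519 and 0.0110 in limma). The DNTTIP1, RPS6KA3 and APOD differences at 30 days lay within 0.27 of those at 10 days.

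SLC16A3 had levels of 9.90 and 10.35 in callipyge lambs and 8.68 and 8.67 in normal lambs. It rose by 1.45 ± 0.20, or 2.73-fold (adjusted p = 0.0252). The dimmer SLC16A3 probe sets had differences of 0.64 and 0.62 and did not pass (adjusted p = 0.394 and 0.358), though their groups did not overlap either. At 20 and 30 days the first probe set differed by 0.33 and 0.56, and the groups did not overlap at either age. Its levels in the older normal lambs were 9.54, 9.70, 8.93 and 8.89, all above both normal lambs of 10 days, whereas the older callipyge lambs read 10.08, 9.83, 9.68 and 9.27.

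UQCRQ had levels of 6.56 and 7.15 in callipyge lambs and 8.82 and 8.81 in normal lambs. It fell by 1.96 ± 0.27, a 3.89-fold lower signal plus 16 (adjusted p = 0.0252). Here too the normal lambs of 10 days stood apart from the rest: the older normal lambs read 7.49, 7.71, 7.0 and 7.32, and the older callipyge lambs 6.76, 6.90, 7.30 and 6.56. The difference was -0.77 at 20 days and -0.23 at 30 days. At 30 days the groups overlapped.

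TTYH1 had levels of 4.41 and 4.70 in callipyge lambs and 6.98 and 6.39 in normal lambs. It fell by 2.14 ± 0.28, a 4.39-fold lower signal plus 16 (adjusted p = 0.0252). The callipyge levels lie close to 4, the value of no signal, so the size depends on the constant that was added, from -1.08 with 64 to -3.41 with 1. The normal lambs of 20 days were also high, at 6.93 and 6.65, while those of 30 days read 5.15 and 5.19. The older callipyge lambs read 5.67, 5.07, 5.00 and 5.20, all above both callipyge lambs of 10 days.

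The next genes in order of p missed the threshold, and their values are given as measured. SLC12A4, a potassium chloride cotransporter, read 5.83 and 5.67 in callipyge and 4.52 and 4.15 in normal lambs (1.42, adjusted p = 0.0528). The normal levels lie near the value of no signal, and the differences at 20 and 30 days were 0.22 and 0.25, without overlap. RLIM, a nuclear ubiquitin ligase, read 8.05 and 7.70 against 6.67 and 6.77 (1.16, adjusted p = 0.0583), and its later differences were 0.12 and 0.04. On the lower side, MEF2C, a transcription factor of muscle differentiation, read 9.52 and 9.86 against 10.88 and 10.54 (-1.02, adjusted p = 0.0692). MVK, the mevalonate kinase of sterol synthesis, read 5.17 and 5.25 against 7.11 and 6.77 (-1.73, adjusted p = 0.0754). IDH2, the mitochondrial NADP-dependent isocitrate dehydrogenase, read 10.36 and 10.90 against 11.99 and 11.71 (-1.23, adjusted p = 0.0754). In all 5 of these genes the callipyge and normal lambs of 10 days did not overlap. They were chosen for a small p in these same lambs, so this describes them only. Of all tested probe sets 18.4% did not overlap with callipyge higher and 20.8% with callipyge lower.

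**Figure D2:**
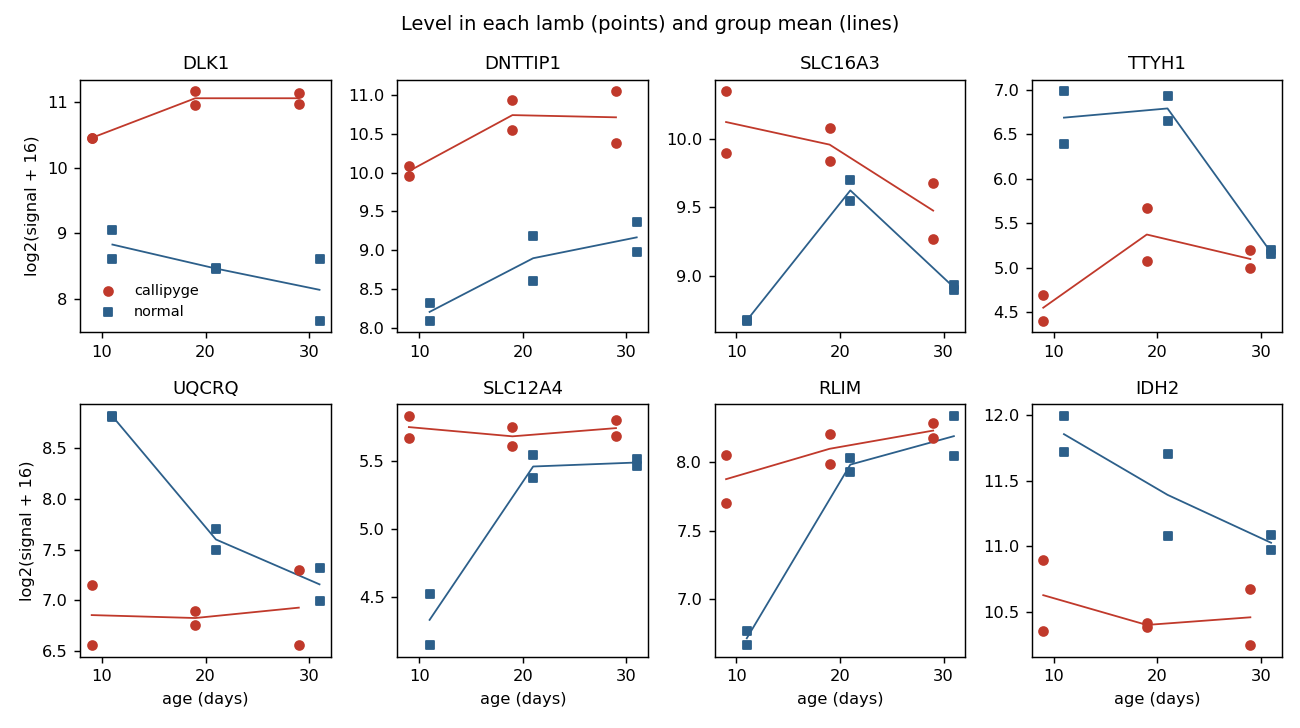
Each panel plots 1 gene, with age in days on the horizontal axis and log2 of signal plus 16 on the vertical axis; points are single lambs, red circles callipyge and blue squares normal, moved slightly apart at each age, and lines join group means. For DLK1, DNTTIP1, SLC16A3, SLC12A4 and IDH2 the genotypes do not overlap at any of the 3 ages. For DNTTIP1, SLC16A3, UQCRQ, SLC12A4, RLIM and IDH2 the 2 normal lambs of 10 days lie beyond the other 10 lambs.

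For several genes the normal lambs of 10 days thus had levels outside those of all other lambs. Both lay above or both lay below the other 10 arrays in 777 of the 12008 tested probe sets (6.47%), and both callipyge lambs of 10 days did so in 549 (4.57%). Among the 8 probe sets that passed at 10 days, the normal pair was outermost in 4, the named ones being SLC16A3, DNTTIP1 and UQCRQ, and the callipyge pair in 1, TTYH1. Among the 27 at an adjusted p of 0.10 the normal pair was outermost in 11 and the callipyge pair in 8, with both in 2. These probe sets were chosen on the same values, so the counts describe them only. The normal pair also lay outermost at the negative end of the first principal component, and the part of this in the calls was not tested. All arrays of 10 days had negative scores there and all of 30 days positive ones, up to 27.5 in a normal lamb.

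Genes of mitochondrial energy production lay lower in callipyge muscle at 10 days as a group, although UQCRQ was their only member to pass. In tissue RNA, fewer cells or fibres of a type and less RNA per cell cannot be told apart. Complex I of the respiratory chain takes electrons from NADH. Of its 36 tested genes 33 lay below 0, against 51.4% of all tested probe sets, and in 28 both callipyge lambs lay below both normal lambs, against 20.8%. An unadjusted p under 0.05 was reached by 15 on the lower side, against 4.48%, and 0 passed after adjustment over all probe sets. The median difference was -0.38. With each array left out in turn it lay between -0.46 and -0.24, and with no scaling it was -0.63, where the median of all probe sets was -0.21. The mean level of the list, less that of all tested probe sets, was 3.46 and 3.71 in callipyge and 3.85 and 3.98 in normal lambs.

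The complex I members with the smallest p were NDUFS7, NDUFB7, NDUFV1 and NDUFA9. NDUFS7, which carries an iron-sulfur cluster, read 10.74 and 10.92 in callipyge and 11.59 and 11.59 in normal lambs, a difference of -0.76 ± 0.17 (adjusted p = 0.143). NDUFV1, the NADH-binding subunit, stood at -0.68 ± 0.18, and its levels of 10.35 and 10.61 lay below 11.16 and 11.16. NDUFB7 differed by -0.68 and NDUFA9 by -0.55. NDUFC1, named here after its value was seen, was the only member with callipyge lambs above normal ones, at 9.97 and 10.25 against 9.41 and 9.36 (0.72, adjusted p = 0.484).

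The other respiratory complexes showed the same direction. Of 40 genes of complexes II to V, 38 lay below 0 (51.4% of all tested probe sets did) and 32 did not overlap with callipyge lower (20.8% of all). An unadjusted p under 0.05 on that side was reached by 16 (4.48% of all), and the median was -0.29. All 9 genes of complex III, which passes electrons to cytochrome c, lay below 0 without overlap (median -0.47), among them UQCRQ and UQCR11 at -0.56 ± 0.15 (adjusted p = 0.225). All 16 genes of the ATP synthase lay below 0, 13 of them without overlap (median -0.29). ATP5PB, of its peripheral stalk, read 11.47 and 11.65 in callipyge and 12.18 and 12.34 in normal lambs (-0.71), and ATP5F1D, of its central stalk, stood at -0.63. All 4 genes of complex II (median -0.21) and 9 of 11 of complex IV (median -0.26) also lay below 0. In complex IV 7 genes did not overlap on the lower side and 2 on the higher (20.8% and 18.4% of all). Its highest member, COX6A1, named here after its value was seen, stood at 0.36. Of the 11, an unadjusted p under 0.05 on the lower side was reached by 1. The list's mean level, less that of all tested probe sets, was 4.28 and 4.46 in callipyge against 4.64 and 4.76 in normal lambs. No member beyond UQCRQ passed.

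Genes of other oxidative pathways also lay mostly below 0. Of 17 genes of the tricarboxylic acid (TCA) cycle and pyruvate dehydrogenase, 16 lay below 0, 13 did not overlap on that side (20.8% of all tested probe sets), and the median was -0.32. Besides IDH2, IDH1 read 10.94 and 11.00 against 11.42 and 11.79 (-0.64, adjusted p = 0.292). IDH1 is the cytosolic isocitrate dehydrogenase, listed here though it lies outside the mitochondrial cycle. IDH3G, of the NAD-dependent enzyme, stood at -0.54, and MDH2, the mitochondrial malate dehydrogenase, at -0.29. Of 26 genes of fatty acid uptake and oxidation, 20 lay below 0, 12 did not overlap on that side and 1 on the other (20.8% and 18.4% of all), and the median was -0.22. ACAA2, the last enzyme of a round of beta-oxidation, read 8.81 and 8.96 against 9.63 and 10.04 (-0.96 ± 0.21, adjusted p = 0.143). DECR1, which handles unsaturated chains, stood at -0.84, ACADVL, for very long chains, at -0.65 and HADH at -0.55. The exception without overlap was CD36, a fatty acid transporter of the cell surface named here after its value was seen, at 9.88 and 9.84 against 9.05 and 9.20 (0.74, adjusted p = 0.530). None of these 26 genes and none of the TCA cycle genes passed.

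**Figure D3:**
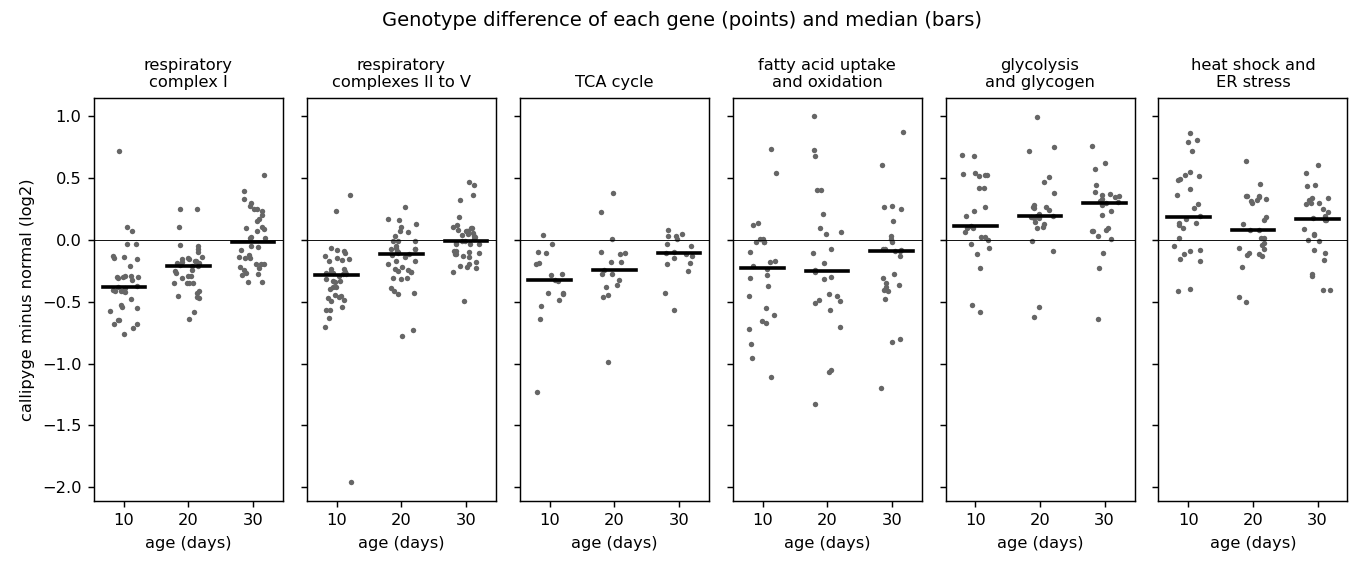
Points are the genotype differences (log2, callipyge minus normal) of the tested genes of 6 lists at 10, 20 and 30 days, and bars are their medians. At 10 days the respiratory and TCA cycle points lie mostly below 0, with UQCRQ lowest at -1.96, and the respiratory medians move to -0.02 and -0.01 at 30 days.

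Genes of glycolysis and glycogen stood on the other side. Of 25 tested, 18 lay above 0, against 48.6% of all tested probe sets, and 13 did not overlap with callipyge higher, while 2 did not overlap with callipyge lower (18.4% and 20.8% of all). At an unadjusted p under 0.05 there were 7 on the higher side, against 4.34%, and 0 on the lower, and 0 passed. The median was 0.11 and became -0.09 with no scaling, where all probe sets stood at -0.21. PFKM, the muscle phosphofructokinase that commits sugar to glycolysis, read 12.10 and 12.05 in callipyge and 11.57 and 11.55 in normal lambs (0.52 ± 0.12, adjusted p = 0.143). PGM1, which links glycogen to glycolysis, read 12.12 and 12.10 against 11.60 and 11.55 (0.54 ± 0.13, adjusted p = 0.193). GYG1, the primer protein of glycogen, stood at 0.69 and ENO1, an enolase, at 0.53. In each of these 4 genes, chosen for the smallest p in the same lambs, both callipyge lambs lay above both normal lambs.

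Genes of the fast fibre list mostly lay above 0 and those of the slow fibre list mostly below 0, and none passed. The slow fibre list also holds genes that are not contractile, such as LDHB. Of 10 fast fibre genes 9 lay above 0 (48.6% of all tested probe sets). On that side 2 did not overlap, a share like the 18.4% of all. The fast fibre median was 0.05, and it was -0.03 after median centring and -0.20 with no scaling. The medians of all tested probe sets under those 2 settings were -0.04 and -0.21. The largest difference was that of MYLK2, the skeletal muscle myosin light chain kinase, at 1.04 (adjusted p = 0.420), with levels of 7.85 and 6.95 against 5.76 and 6.95. MYOZ1, ACTN3 and TNNC2, structural proteins of fast fibres, stood at -0.09, 0.10 and 0.08. The probe sets of MYH1, a fast myosin named here after its values were seen, disagreed: the brightest stood at 0.05 and another bright one at -0.59 ± 0.15, and neither passed (adjusted p = 0.975 and 0.186). Of 15 slow fibre genes 12 lay below 0 (51.4% of all) and 3 did not overlap on that side, a share like the 20.8% of all tested probe sets, and the median was -0.15. The slow fibre mean, less that of all tested probe sets, was 3.84 and 3.68 in callipyge and 3.96 and 3.96 in normal lambs, without overlap, and the fast fibre means overlapped, at 5.20 and 5.16 against 4.87 and 5.17. LDHB, the lactate dehydrogenase subunit of oxidative tissue, read 8.45 and 8.21 against 9.53 and 9.79 (-1.33 ± 0.27, adjusted p = 0.111). MB, myoglobin, stood at -0.63 with overlap, ACTN2, the slow fibre and heart alpha-actinin, at -0.30, and ATP2A2, the slow calcium pump, at -0.21. The slow myosins MYH7 and MYL2, named here after their values were seen, differed by -0.13 and 0.01. Of 8 embryonic and neonatal muscle genes 0 reached an unadjusted p of 0.05, against 8.82% of all tested probe sets, and the median was 0.07. With so few genes the count cannot be told apart from that share.

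Chaperones and stress proteins tended to the callipyge side. Of 28 genes of heat shock and endoplasmic reticulum stress 20 lay above 0 (48.6% of all tested probe sets), and 13 did not overlap on that side and 2 on the other (18.4% and 20.8% of all). On the higher side 7 had an unadjusted p under 0.05 (4.34% of all), and 0 passed. The median was 0.18, and -0.07 with no scaling, where all probe sets stood at -0.21. HSP90AA1, the inducible HSP90, read 10.27 and 10.15 in callipyge and 9.40 and 9.44 in normal lambs (0.79 ± 0.20, adjusted p = 0.225). STIP1, which joins HSP70 to HSP90, read 10.61 and 10.39 against 9.70 and 9.69 (0.81 ± 0.22). HSPB1, a small heat shock protein, stood at 0.72, and HSPH1, a nucleotide exchange factor of HSP70, at 0.86. All 4, chosen for the smallest p in the same lambs, had both callipyge lambs above both normal lambs.

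Protein synthesis and breakdown differed little in size. Of 59 cytosolic ribosomal protein genes 45 lay below 0 and 32 did not overlap on that side (51.4% and 20.8% of all tested probe sets), with a median of -0.10. RPL39 stood at -1.34 (adjusted p = 0.0799), with 8.67 and 8.74 against 10.15 and 9.93, and the next, RPL32, RPL23 and RPL14, at -0.49, -0.42 and -0.32. Of 31 translation factors 21 lay above 0, against 48.6% of all tested probe sets (median 0.11, or -0.14 with no scaling). EIF5 stood at 0.44, EIF3H at 0.34, EIF3A at 0.38 and EIF3I at 0.37. Of 32 proteasome genes 23 lay above 0 and 11 did not overlap on that side, against 48.6% and 18.4% of all (median 0.09, or -0.15 with no scaling), and PSME4, an activator cap, had the smallest p, at 0.44. PSMC6 stood at 0.35, PSMD10 at 0.42 and PSME1 at -0.40. Among 21 genes of ubiquitin ligases and autophagy (median 0.09, or -0.15 with no scaling), GABARAPL1, of autophagosomes, stood at -0.52, BNIP3, a mitophagy receptor, at 0.75, CTSD, a lysosomal protease, at -0.96 and CAPN2, a calpain, at 0.47. With no scaling the median of all probe sets was -0.21. No gene of these 4 lists passed.

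**Figure D4:**
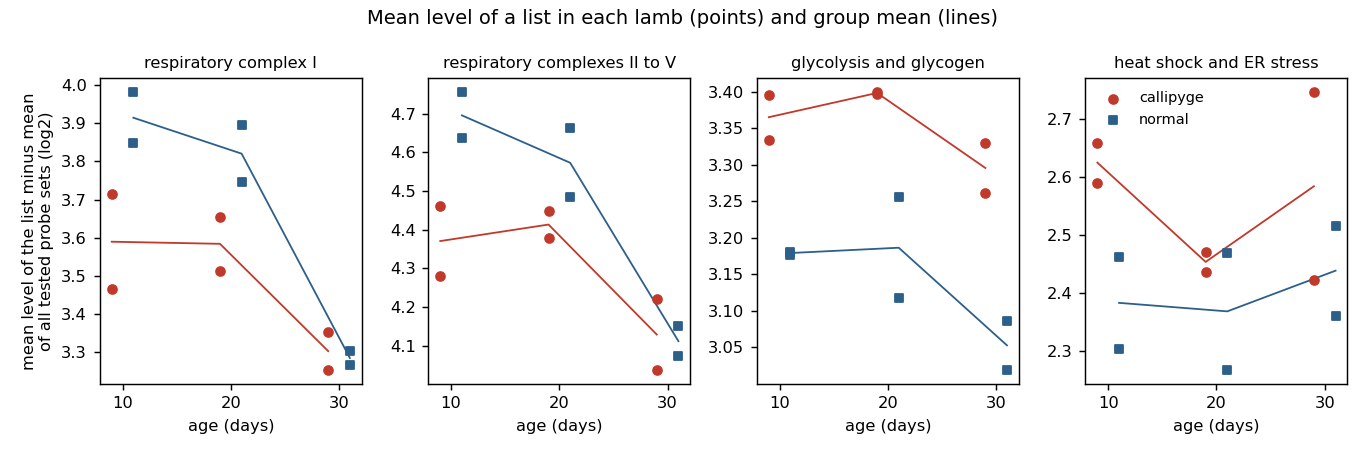
Points are the mean log2 level of a list in each lamb, less the mean of all tested probe sets on the same array, at 10, 20 and 30 days, with lines through the group means; red circles are callipyge and blue squares normal lambs, moved slightly apart. At 10 days the callipyge lambs lie below both normal lambs for respiratory complex I (3.46 and 3.71 against 3.85 and 3.98) and above them for glycolysis and glycogen (3.33 and 3.40 against 3.18 and 3.18).

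Apart from calcium handling, the signalling lists showed single genes rather than a shared shift. The Notch list, to whose ligands DLK1 is related, had 8 tested genes and a median of -0.0024. An unadjusted p under 0.05 was reached by 0 of the 8, against 8.82% of all tested probe sets. With so few genes the count cannot be told apart from that share. DLK2 stood at 0.23, NUMB at -0.22, LFNG at 0.13 and JAG1 at -0.08. The median of 13 calcium handling genes was 0.15, or -0.10 with no scaling, where all probe sets stood at -0.21. Of the 13, 9 lay above 0 (48.6% of all tested probe sets). Without overlap were 5 on that side and 3 on the other (18.4% and 20.8% of all). The list's mean level, less that of all tested probe sets, was 1.82 and 1.95 in callipyge and 1.69 and 1.75 in normal lambs. Among the calcium genes CAMK2D, the delta calmodulin kinase, read 10.56 and 10.57 in callipyge and 9.56 and 9.53 in normal lambs. That difference of 1.02 ± 0.21 had an adjusted p of 0.106, and ASPH stood at 0.55, CALM3 at 0.42 and PPP3CB at -0.34. In growth signalling, with 21 genes, EIF4EBP1, the repressor of cap-dependent translation, read 7.40 and 7.41 against 8.73 and 8.70 (-1.31, adjusted p = 0.254). RPTOR, a partner of mTOR, stood at 0.54, GHR, the growth hormone receptor, at -0.41 and RPS6KB1 at 0.27. In cyclic AMP signalling, with 12 genes, RAMP1, which forms CGRP receptors, stood at -0.96, PRKAR2A, a regulatory subunit of protein kinase A, at 0.88, CREM at -0.79 and PDE8A at 0.56. Among 9 myogenic regulators MEF2A stood at 0.69 beside MEF2C at -1.02, MYOD1 at -0.46, and MSTN, the muscle growth inhibitor myostatin, at 0.91 with callipyge levels of 6.35 and 7.88. No gene of these 5 lists passed.

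Immediate early genes, which answer within minutes to stimuli and to handling, varied widely. Of 18 tested 11 lay above 0, against 48.6% of all tested probe sets, and 0 passed. The median was 0.14, and -0.09 with no scaling, where all probe sets stood at -0.21. FOS read 9.31 and 9.55 in callipyge and 6.37 and 7.73 in normal lambs, a difference of 2.39 ± 0.85 (adjusted p = 0.424). Its difference was -2.02 at 20 days and 2.96 at 30 days, so its sign changed between ages. ATF3 read 6.93 and 8.86 against 5.26 and 6.72 (1.90, adjusted p = 0.377). KLF10, a transcription factor induced by TGF-beta, went the other way, at 7.77 and 7.47 against 8.90 and 8.82 (-1.24 ± 0.25, adjusted p = 0.104), and MYC stood at -0.88. KLF10 also lay lower at 20 and 30 days, at -1.52 and -0.76.

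Markers of other cell types were given beside these lists, and their part in the differences was not tested. The medians were -0.03 for 13 endothelial and smooth muscle genes, 0.05 for 6 immune genes, -0.07 for 6 adipocyte genes, 0.09 for 4 nerve genes, -0.19 for 3 erythroid genes and -0.09 for 32 genes of collagens and matrix. The mean level of the matrix list was 8.13 and 8.17 in callipyge and 8.24 and 8.39 in normal lambs, a gap without overlap. The other lists overlapped: endothelial and smooth muscle means were 7.79 and 7.79 against 7.54 and 7.98, immune means 5.29 and 5.40 against 5.12 and 5.58, adipocyte means 6.06 and 6.35 against 6.17 and 6.21, nerve means 5.81 and 6.05 against 5.75 and 5.91, and erythroid means 5.96 and 6.50 against 6.31 and 6.66, each pair given from low to high. By smallest p the leading members were DCN, a matrix proteoglycan, at -0.52, DES, a filament protein that muscle fibres also hold, at -0.58, CNN1 and TAGLN of smooth muscle at 0.88 and 0.46, and SCD, a fatty acid desaturase of fat cells, at 0.77. The immune genes CSF1R and CD14 stood at -0.51 and 0.21, UCHL1 of nerve at 0.36 and CA2 of red cells at -0.74. None of these markers passed.

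The remaining lists lay near all probe sets. The medians were -0.03 for 18 cell cycle genes, -0.01 for 23 chromatin regulators, -0.09 for 14 genes of antigen presentation and interferon, 0.02 for 15 circadian and glucocorticoid genes and 0.08 for 15 imprinted genes outside the callipyge cluster. Single members stood further out without passing. SETD7, a lysine methyltransferase, read 9.58 and 9.72 against 8.50 and 9.09 (0.85, adjusted p = 0.330). ZBTB16, a zinc finger factor induced by glucocorticoid, read 6.45 and 6.97 against 5.81 and 5.75 (0.93, adjusted p = 0.228), and NDN, an imprinted growth suppressor, stood at -0.46.

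**Figure D5:**
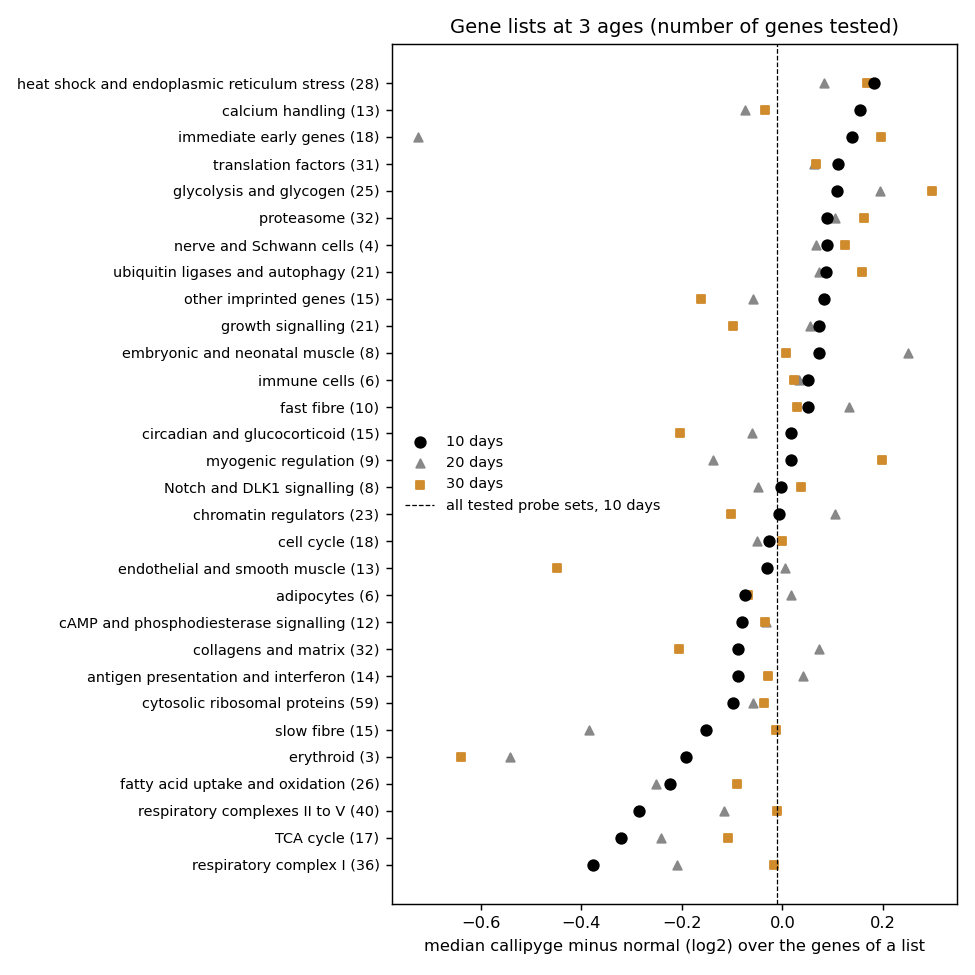
Each row is a gene list, with the number of genes tested in brackets, and the horizontal axis is its median genotype difference (log2, callipyge minus normal) at 10 days (black circles), 20 days (grey triangles) and 30 days (orange squares); the dashed line is the median of all tested probe sets at 10 days. At 10 days respiratory complex I is lowest, at -0.38, and heat shock and endoplasmic reticulum stress highest, at 0.18, among the lists shown; the callipyge locus and the published callipyge genes are not drawn.

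The later ages used other lambs, so they can be set beside the 10 day values, although all contrasts share 1 estimate of spread. At 20 days 4 probe sets passed (0.0333%) and at 30 days 6 (0.05%), all of them higher in callipyge lambs. The 3 probe sets that fell at 10 days were therefore not called later. All 4 probe sets of 20 days were among the 8 of 10 days, or 50% of those, and 2 of the 8 were among the 6 of 30 days, or 25.0% and 33.3% of each. DLK1 passed at all 3 ages and DNTTIP1 at 10 and 20 days (adjusted p = 0.0580 at 30 days). All 8 probe sets kept their sign at both later ages. Of the 1059 at an unadjusted p of 0.05, 70.5% kept their sign at 20 days and 69.7% at 30 days. The share of all tested probe sets that kept their sign was not counted, so these shares describe the chosen probe sets only. Across all 12008 probe sets the differences at 10 days correlated with those at 20 and 30 days at r = 0.206 and 0.211, as a description, since probe sets are not independent and the lambs share 1 platform and scaling.

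By list, the respiratory medians went from -0.38 at 10 days to -0.21 and -0.02 at 20 and 30 days for complex I and from -0.29 to -0.12 and -0.01 for complexes II to V. Complex I genes below 0 numbered 33 of 36 at 20 days and 18 of 36 at 30 days (48.6% and 53.0% of all tested probe sets), and those without overlap on the lower side 25 and 5, where 18.4% and 17.9% of all tested probe sets did so. The mean complex I level of the normal lambs was 3.75 and 3.90 at 20 days and 3.30 and 3.27 at 30 days, while that of the callipyge lambs was 3.51 and 3.65 and then 3.35 and 3.25. Both genotypes were thus lower at 30 days than at 10, the normal lambs more so. The glycolysis and glycogen median went from 0.11 to 0.19 and 0.30, the TCA cycle median from -0.32 to -0.24 and -0.11, and the fatty acid median from -0.22 to -0.25 and -0.09. These changes with age were not tested per list.

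No probe set passed in the test of whether the 10 day difference differed from the mean of the later ones (0 of 12008 in limma, with 587, or 4.89%, at an unadjusted p of 0.05) or from that at 30 days (0, with 614, or 5.11%), and least squares gave 0 in both. Thus no gene is shown to differ by genotype at 10 days alone. The genes with the smallest p are given as values. Against both later ages they were, on the higher side, CD300LG, an endothelial mucin receptor, at 1.95, HMOX2, a heme oxygenase, at 1.43 and RLIM at 1.08, and on the lower side SAG, the arrestin of photoreceptors, at -2.02, RPL39 at -1.58 and MEF2C at -1.12. A further SAG probe set stood at -0.37. Against 30 days they were HMOX2 at 1.79, ZBTB16 at 1.69 and GIGYF1, a regulator of translation, at 1.49, and MVK at -2.30, TTYH1 at -2.06 and MEF2C at -1.36. The smallest adjusted p was 0.619 against both later ages and 0.598 against 30 days.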

How the data were processed

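The values were deposited by the authors as linear signal intensities, 1 for each probe set and array, made with MAS5 in GCOS per the submitters' processing notes; versions and a scaling target are not given in the sources used here. Each of the 12 arrays (24128 probe sets, 0 missing values) was scaled to the mean of the arrays' trimmed means, 79.2, with 2% left out at each end; before scaling these ran from 55.7 to 105.7. The log2 of signal plus 16 was taken, 112 control probe sets were left out, and the 12008 probe sets whose mean reached the median of 5.25 were tested. Of these, 7927 have 1 symbol in the platform annotation and cover 6346 genes, 52 have several and 4029 none; the last 2 kinds are not named. The number of arrays limits the precision, sheep RNA was read with cattle probes, and detection calls were not used.

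A model with a mean for every group was run in limma 3.58.1 (R 4.3.3). Its variances were moderated along a brightness trend, with 6 residual degrees of freedom and 6.93 from the prior. P-values were adjusted by Benjamini-Hochberg over all tested probe sets, with a threshold of 0.05; the scripts were tested on simulated data. Named were the genes of the callipyge locus, those passing at 10 days, the 5 nearest to passing in each direction, up to 4 members of each of the 32 lists, and 3 genes each way in the interactions. Where a gene has several probe sets, lists use the brightest and the rest of the text the one of smallest p. The members, lists and tests were chosen with earlier results of these data known. Alternatives changed the scaling, the added constant, the filter, the variance model, the threshold and the arrays used. Figures were drawn with matplotlib 3.10.9.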

Additional observations from a re-analysis of the deposited data

How the results depend on the processing

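With only 2 lambs a group, the count of probe sets at 10 days moved with most choices, and the other counts with fewer. At 10 days (8 calls with the settings used) there were 5 with no scaling, 3 with median centring, 4 with quantile normalization, 0 with no filter on dim probe sets, 0 with least squares and no shared variance, 20 with array weights, 16 without both replicate 2 arrays of 30 days and 27 at an adjusted p of 0.10; with 1 array left out there were 0 to 8. At 20 days (4 calls) there were 9 with no scaling, 1 with median centring, 2 with no filter, 0 with least squares, and 1 to 5 with 1 array left out. At 30 days (6 calls) there were 10 with an added constant of 1, 0 with least squares, 1 without both replicate 2 arrays of 30 days, 10 at an adjusted p of 0.10, and 1 to 13 with 1 array left out. Both interactions gave 1 call without both replicate 2 arrays of 30 days and 0 under every other alternative that could be fitted; the 10 day arrays alone hold no later age. The cause was not tested, except that with no filter 24016 probe sets were tested. At 10 days 2 of the 5 calls with no scaling were among the 8, and 4 of the 7 from the 10 day arrays alone; under array weights all 8 were kept.

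All 5 named calls kept their direction under every alternative. Each ended without any 1 of the 4 lambs of 10 days, with the highest limma adjusted p at 0.162 for SLC16A3 and DNTTIP1, 0.251 for DLK1, 0.158 for TTYH1 and 0.181 for UQCRQ. All 5 also ended with no filter on dim probe sets and with least squares. With no scaling SLC16A3, DNTTIP1 and DLK1 lost their calls, with median centring DNTTIP1 and DLK1 (adjusted p = 0.0738 and 0.0824), with quantile normalization DLK1 (0.0515), and with the 10 day arrays alone SLC16A3 and TTYH1 (0.0614 each). DLK1 also ended without any 1 of 6 of the 8 older lambs (adjusted p = 0.0601 to 0.0790), the exceptions being the normal lambs of 30 days. The values that changed sign were small: with no scaling MEG3 at -0.11, WARS1 at -0.051 and -0.217, YY1 at -0.086 and SLC25A29 at -0.00699, with median centring WARS1 at -0.046, and with 1 lamb of 10 days left out SLC25A29 between -0.18 and 0.49 and the WARS1 probe set of 0.02 between -0.22 and 0.25. Across the 89 gene results the alternatives gave the same direction and call 2135 times, a lost call 44 times and a gained one 21 times. Only the 5 named calls could be lost, so all 44 losses fell on them. For the other results the same call means only that they again did not pass.

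A term for replicate number gave 10 calls at 10 days. The labels do not say whether same-numbered lambs were paired. Deviations of same-numbered lambs of 1 age correlated at r = 0.02, 0.03 and 0.11 at 10, 20 and 30 days. Between groups of unlike age r lay between -0.06 and 0.05. Such values cannot exclude a pairing, and the replicate block is given only here.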
